A study of Mus musculus with 12 samples.

Results

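The genes described here are Ifnb1 and Ifna4, which encode the type I interferons interferon beta and interferon alpha 4. They were read by 2 of the 33012 probes on the array, 1 probe for each gene (probe 823832 for Ifnb1 and probe 375730 for Ifna4), found by matching the array annotation to the gene symbols. Both probes were detected, at a signal of at least 3 times its noise, on all 12 arrays and were among the 16724 probes tested. The Ifna4 signal on untransfected array 2 was nonetheless 0.62, at percentile 17 of that array and below its median signal of 1.43. The genes were chosen by measured values, namely their signal difference between control siRNA and untransfected cells, so every contrast of these 2 probes with untransfected cells is given as a description without a test.

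Type I interferons are secreted proteins that cells make when receptors for foreign nucleic acid are engaged. In mouse cells Ifnb1 and Ifna4 are the classical early type I interferon genes, switched on by the interferon regulatory factors IRF3 and IRF7, with NF-kB and the ATF2 and c-Jun dimer acting at the Ifnb1 enhancer. The secreted proteins bind the receptor made of IFNAR1 and IFNAR2, and signalling from the receptor then raises a large set of interferon-stimulated genes, among them Irf7, which widens production to the other interferon alpha genes.

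The study asked which genes depend on Pea3 (Etv4) and Erm (Etv5), related ETS transcription factors, in MMT cells, a mouse mammary tumour line. The groups were MMT cells given an siRNA against Pea3 (siPea3, 4 arrays), cells given an siRNA against Erm (siErm, 3 arrays), cells given a control siRNA (siCtrl, 3 arrays) and cells without transfection (untransfected, 2 arrays). The arrays of a group are biological replicates of 1 cell line, all grown in DMEM with fetal calf serum. No siRNA sequence, dose, transfection reagent or harvest time is given in the sources used here. The first 3 groups share the transfection and differ in the siRNA, and untransfected cells had no mock transfection, so the siRNA and the transfection procedure cannot be told apart in any contrast with them.

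Each array gave 1 signal per probe, in arbitrary units, from chemiluminescence of digoxigenin-labelled RNA. Between 34.2% and 41.9% of probes were detected, at a signal of at least 3 times its noise, with the lowest share on siPea3 array 2. The knockdown check was partial. Etv4 averaged 19 ± 2.17 in siPea3, 34.9 ± 9.77 in siErm, 36.9 ± 5.89 in siCtrl and 41.3 ± 0.75 in untransfected cells (SD, n = 4, 3, 3 and 2). The siPea3 minus siCtrl difference of Etv4 was -0.95 on the log2 scale (SE 0.242) and did not pass the test (limma, adjusted p = 0.195). The Etv5 probe was detected on 3 arrays and on none of the siErm arrays, which leaves the Erm knockdown unchecked. Etv1, a related ETS gene, averaged 5.23 ± 5.24 in siPea3, 7.29 ± 3.35 in siErm, 11.4 ± 4.43 in siCtrl and 10.2 ± 0.184 in untransfected cells (SD). Its siPea3 minus siCtrl difference was -1.61 log2 units (SE 0.704, limma unadjusted p = 0.0427, adjusted p = 0.356). The Etv1 probe was detected on 2 of the 4 siPea3 arrays. Whether the siPea3 siRNA acts on Etv1 was not tested. Of 8 leukocyte markers with a probe, Ptprc, Adgre1, Siglech and Cd3e were detected on no array, and Cd14, Lyz2 and Tcf4 were detected on all of them. The summed leukocyte marker signal spanned 84.6 to 164 in siPea3, 99.6 to 176 in siErm, 130 to 216 in siCtrl and 133 to 156 in untransfected cells, so the ranges overlapped between all groups. Of 10 mammary epithelial markers, Krt8 and Krt18 were detected on all arrays, while Krt5, Epcam, Cdh1 and Csn2 were detected on none. Their sum spanned 464 to 786 in siPea3, 771 to 1010 in siErm, 857 to 1300 in siCtrl and 1770 to 1890 in untransfected cells. Every transfected array lay below both untransfected arrays in this sum, which Krt8 and Krt18 carried: Krt8 averaged 410 in siPea3, 678 in siErm, 774 in siCtrl and 1320 in untransfected cells, and Krt18 averaged 73.3, 110, 124 and 407. Other detected members went the other way, with Krt14 at 23.4, 30.6, 16.6 and 13.4, Cldn3 at 13.8, 15, 13.5 and 9.94, and Cldn4 at 55, 58.2, 65.5 and 51.9 in the same groups. Lower values were not limited to epithelial markers. Of 6 fibroblast markers, Vim alone was detected on all arrays, and it averaged 3880, 5140, 5540 and 7140 in the same groups. Col1a2, near background, had no such order (2.04, 1.16, 1.75 and 1.25). The part of these markers in the interferon results was not tested.

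The sequences just upstream of the annotated transcript starts are shown for both genes, since the ETS factors knocked down here and the factors named above act on DNA. Each is the 250 bases before the start in RefSeq (build GRCm38.p6). Ifnb1 covers chr4:88522795-88523044 on the minus strand and Ifna4 covers chr4:88841566-88841815 on the plus strand. Capitals mark matches, on either strand, to the interferon regulatory factor core AANNGAAA and its repeat, in which GAAA occurs 2 times with 2 bases between (and which contains the core), to the NF-kB motif, to the ETS motif AGGAAG, and to the TATA motifs TATAAA and TATTTAA.
Ifnb1: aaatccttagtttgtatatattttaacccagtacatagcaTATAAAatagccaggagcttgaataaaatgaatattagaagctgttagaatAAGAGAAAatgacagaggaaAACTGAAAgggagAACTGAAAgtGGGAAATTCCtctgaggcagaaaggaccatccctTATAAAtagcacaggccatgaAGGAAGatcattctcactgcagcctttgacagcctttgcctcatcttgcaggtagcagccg
Ifna4: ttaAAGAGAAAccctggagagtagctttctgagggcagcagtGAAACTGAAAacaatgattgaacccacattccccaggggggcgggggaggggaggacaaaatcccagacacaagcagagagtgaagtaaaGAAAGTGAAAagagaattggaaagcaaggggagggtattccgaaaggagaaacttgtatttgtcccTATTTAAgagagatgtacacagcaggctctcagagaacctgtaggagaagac
Ifnb1 held 3 AANNGAAA matches, and Ifna4 also held 3, of which 2 belonged to GAAA repeats. Among all 32851 RefSeq promoter windows of the same length, 21.3% held AANNGAAA and 2.98% held the repeat. Ifnb1 had 1 NF-kB match, from 116 to 107 bases upstream, and 3.9% of all windows had one. No NF-kB match was in the letters of the Ifna4 window. The ETS motif AGGAAG occurred 1 time in Ifnb1, starting 61 bases upstream, and was not in the Ifna4 letters, against 29.5% of all windows. TATAAA occurred 2 times in Ifnb1 (12.4% of windows), and TATTTAA 1 time in Ifna4 (4.18% of windows). A match is a description of letters and says nothing of binding in these cells.

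For comparison, the window of Ifna2, whose probe followed Ifna4 across the arrays, and that of Ifna1, whose probe stayed near background, are printed with the same marks. Ifna2 lies at chr4:88683780-88684029 on the minus strand and Ifna1 at chr4:88849837-88850086 on the plus strand.
Ifna2: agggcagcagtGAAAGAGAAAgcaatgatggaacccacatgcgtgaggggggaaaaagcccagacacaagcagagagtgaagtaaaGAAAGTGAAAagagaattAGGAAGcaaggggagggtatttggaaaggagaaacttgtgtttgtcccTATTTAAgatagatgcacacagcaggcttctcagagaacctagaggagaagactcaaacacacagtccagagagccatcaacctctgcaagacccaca
Ifna1: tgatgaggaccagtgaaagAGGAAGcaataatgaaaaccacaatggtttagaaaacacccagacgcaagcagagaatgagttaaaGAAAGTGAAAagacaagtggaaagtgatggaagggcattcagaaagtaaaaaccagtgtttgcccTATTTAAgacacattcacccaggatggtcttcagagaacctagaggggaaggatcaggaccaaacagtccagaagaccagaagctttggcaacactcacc
Over the aligned stretch, Ifna4 and Ifna2 were identical at 189 of 204 bases (92.6%), and Ifna4 and Ifna1 at 156 of 201 bases (77.6%). Ifna2 held 2 of the GAAA repeats and Ifna1 held 1. Across the 13 Ifna windows in the RefSeq table, all 13 held AANNGAAA, 11 held the repeat, 8 held AGGAAG and 0 held the NF-kB motif.

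Ifnb1 was low in untransfected cells and far higher in every transfected culture. Its signal was 169, 1165, 294 and 224 on siPea3 arrays 1 to 4, 753, 244 and 264 on siErm arrays 1 to 3, 218, 166 and 224 on siCtrl arrays 1 to 3, and 15.8 and 5.57 on the untransfected arrays 1 and 2. All 10 transfected arrays lay above both untransfected arrays, and siPea3 array 2 and siErm array 1 stood well above the rest of their groups. The share of all tested probes that separate from untransfected cells in this way was not counted, and the genes were chosen by such a contrast. The group means were 463 ± 471 in siPea3, 420 ± 288 in siErm, 202 ± 31.8 in siCtrl and 10.7 ± 7.24 in untransfected cells (SD, n = 4, 3, 3 and 2). The order by mean signal was thus siPea3, siErm, siCtrl, untransfected, but siErm came before siPea3 by geometric mean (337 in siPea3 and 365 in siErm), and the 3 transfected groups were not separated beyond the spread within siPea3 and siErm.

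Ifna4 had the same overall form at a lower signal on its own probe. The signal was 26.5, 94.1, 70.9 and 67.9 on siPea3 arrays 1 to 4, 92, 30 and 49.1 on siErm arrays 1 to 3, 25.9, 11.4 and 27.6 on siCtrl arrays 1 to 3, and 2.93 and 0.62 on the untransfected arrays. The siErm arrays all lay above the siCtrl arrays, and on the siPea3 side array 1 alone fell inside the siCtrl range. Means were 64.8 ± 28.1 in siPea3, 57 ± 31.8 in siErm, 21.6 ± 8.89 in siCtrl and 1.78 ± 1.63 in untransfected cells (SD, n = 4, 3, 3 and 2). Neighbouring groups among the transfected ones did not differ beyond their spread by the tests given further on. As these are bulk cultures, fewer producing cells and less RNA per producing cell cannot be told apart.

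**Figure D1:**
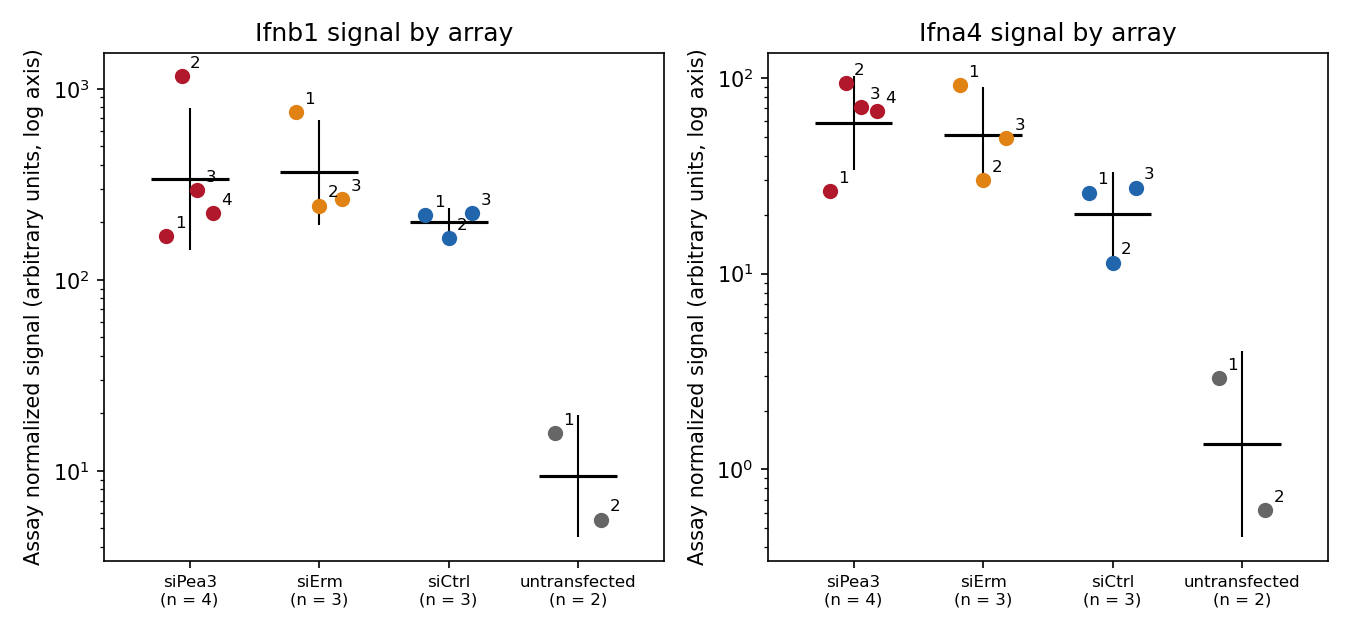
Signal of the Ifnb1 probe (left) and the Ifna4 probe (right) on each array, on a log axis in arbitrary units, by group. Numbers are the replicate, horizontal bars the geometric mean and vertical bars 1 SD on the log2 scale. Both untransfected arrays sit below all 10 transfected arrays for each gene, a separation whose share among all tested probes was not counted. The highest value of each gene is on siPea3 array 2 (1165 for Ifnb1 and 94.1 for Ifna4).

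Set against untransfected cells, the fitted differences of Ifnb1 were 5.17 log2 units in siPea3 (36-fold, SE 0.74), 5.28 in siErm (38.9-fold, SE 0.78) and 4.42 in siCtrl (21.4-fold, SE 0.78). Those of Ifna4 were 5.45 in siPea3 (43.7-fold, SE 0.706), 5.25 in siErm (38.1-fold, SE 0.744) and 3.9 in siCtrl (14.9-fold, SE 0.744). These contrasts share the same 2 untransfected arrays and chose the genes, so they carry no test. The lowest siCtrl array was 10.5 times the highest untransfected array for Ifnb1 and 3.89 times for Ifna4. Among the 16724 tested probes, 1.02% were called at an adjusted p under 0.05 between siCtrl and untransfected cells, 0.783% between siErm and untransfected cells and 6.37% between siPea3 and untransfected cells. By size of the siCtrl difference, Ifnb1 ranked 11 and Ifna4 ranked 22. The untransfected level is the weak point of these folds. With untransfected array 1 left out the siCtrl difference of Ifna4 was 5.02 log2 units, and with array 2 left out it was 2.78. For Ifnb1 the corresponding values were 5.17 and 3.67.

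The siRNAs against the 2 ETS factors were then compared with the control siRNA. The untransfected arrays do not enter these differences, but they enter the limma p-values through the spread, which was estimated over all 12 arrays. The siCtrl arrays were part of the contrast by which the genes were chosen and serve in both tests. Ifnb1 was 1.68-fold higher in siPea3 than in siCtrl, a log2 difference of 0.75 (95% interval -0.69 to 2.19) that did not pass (limma, adjusted p = 0.617, exact 2-sided permutation p = 0.343). The groups overlapped, and the estimate rested on 1 array: without siPea3 array 2 it was 0.15. With the replicate number as a block, the difference was 0.95 (SE 0.77), with an unadjusted p of 0.251 and an adjusted p of 0.626 (limma). In the same comparison 0.0359% of tested probes were called, 6 probes in number, and 0 with the replicate number as a block.

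Ifna4 was 2.93-fold higher in siPea3 than in siCtrl, a log2 difference of 1.55 (95% interval 0.18 to 2.92). Its unadjusted p was 0.03 and its adjusted p 0.327 (limma), and the exact 2-sided permutation p was 0.0857, where 0.0286 is the smallest that 4 arrays against 3 can give. Fitted on the siPea3 and siCtrl arrays alone, the SE was 0.51 in place of 0.62, with an unadjusted p of 0.0155 and an adjusted p of 0.341 (limma). With the replicate number as a block, the difference was 1.48 (SE 0.68), with an unadjusted p of 0.0603 and an adjusted p of 0.465 (limma). The groups overlapped by a narrow margin, with the lowest siPea3 array at 0.961 times the highest siCtrl array. Ifna4 was higher in siPea3 in 3 of 3 pairs of arrays with the same replicate number, by 1.02-fold to 8.26-fold, and Ifnb1 in 2 of 3.

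Between siErm and siCtrl, Ifnb1 was 1.82-fold higher (log2 0.86, 95% interval -0.67 to 2.4) and Ifna4 2.55-fold higher (log2 1.35, 95% interval -0.11 to 2.82). Neither passed in limma, where the adjusted p was 1 for both. For Ifna4 the unadjusted p was 0.0669, and 0.0373 in a limma fit of the siErm and siCtrl arrays alone, with an adjusted p of 1 again. With the replicate number as a block, the unadjusted p was 0.0811 for Ifna4 and 0.293 for Ifnb1 (limma). The 3 siErm arrays lay above all 3 siCtrl arrays for each gene, and in all 3 same-numbered pairs. The share of all tested probes that separate in this way was not counted. With 3 arrays against 3, shuffled without regard to pairs, the exact 2-sided permutation p was 0.1 for each, the smallest such shuffling allows. Without siErm array 1 the Ifnb1 difference was 0.34. The lowest siErm array was 1.09 times the highest siCtrl array for both genes. In this comparison 0% of tested probes were called, and 339 of them had an unadjusted p under 0.05.

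Between siPea3 and siErm neither gene differed by a resolvable amount. The log2 difference was -0.11 for Ifnb1 (95% interval -1.55 to 1.32, limma adjusted p = 0.96, exact permutation p = 0.857). It was 0.2 for Ifna4 (95% interval -1.17 to 1.57, limma adjusted p = 0.922, exact permutation p = 0.714). The intervals still allow a difference of more than 1 log2 unit in either direction. Of all tested probes, 0.00598% were called here, which was 1 probe.

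The genes moved together across arrays, though not in fixed proportion. Because the brightness of different probes is not comparable, only changes of the log2 ratio between arrays are read. The log2 ratio of Ifnb1 to Ifna4 was 2.68, 3.63, 2.05 and 1.72 on siPea3 arrays 1 to 4, 3.03, 3.03 and 2.43 on the siErm arrays, 3.07, 3.87 and 3.02 on the siCtrl arrays, and 2.43 and 3.17 on the untransfected arrays. The siPea3 arrays were the most scattered. The mean ratio of Ifna4 to Ifnb1 was higher in siPea3 than in siCtrl by 0.8 log2 units (exact 2-sided permutation p = 0.2) and in siErm than in siCtrl by 0.49 (p = 0.3, exact permutation). Neither ratio differed beyond its spread.

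**Figure D2:**
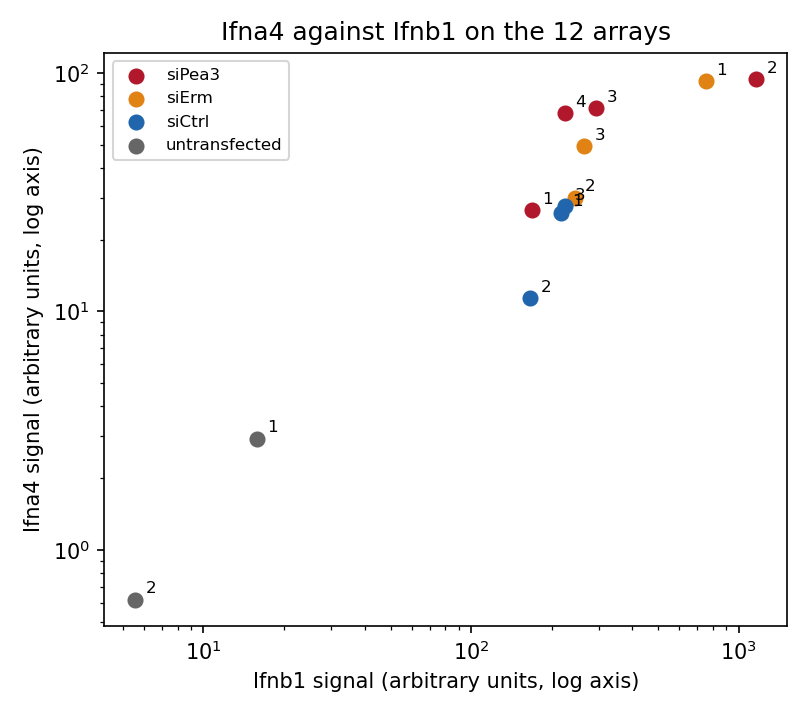
Ifna4 signal (vertical) against Ifnb1 signal (horizontal) on the 12 arrays, both on log axes in arbitrary units, coloured by group and numbered by replicate. The untransfected arrays lie at the lower left, the siCtrl arrays in the middle, and siErm array 1 and siPea3 array 2 at the upper right.

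Other interferon genes were read by further probes, so the pattern could be set beside the rest of the family. The list of ligands held 21 genes, of which 12 had a probe matched to that gene alone; together with 5 probes matched to several genes this made 18 probes. Of these, 11 passed the detection filter, including the 2 described above. The interferon alpha genes are close copies of each other, so a probe may read more than the gene it is matched to.

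Ifna2, another interferon alpha, had a signal of 9.69, 36.2, 27 and 23.9 on siPea3 arrays 1 to 4, 36.6, 17 and 23.4 on siErm arrays 1 to 3, 9.81, 5.07 and 14.5 on siCtrl arrays 1 to 3, and 1.49 and 1.58 on the untransfected arrays. Ifna12 had 9.18, 33.6, 17.7 and 18.5 on the siPea3 arrays, 27.9, 13.8 and 15.3 on the siErm arrays, 9.44, 5.92 and 8.26 on the siCtrl arrays, and 2.08 and 0.81 on the untransfected arrays. In both, siPea3 array 1 fell within the siCtrl range, as it did for Ifna4, and siPea3 arrays 2, 3 and 4 lay above siCtrl. A second Ifna12 probe averaged 0.788 in siPea3 and 1.62 in untransfected cells and was detected on 1 array, so the 2 probes matched to this gene alone disagree. Ifna12 is also among the genes matched to 2 further probes, named below.

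Of the 9 ligand probes other than Ifnb1 and Ifna4, 5 were called higher in siPea3 than in untransfected cells, where 2.55% of all tested probes were called higher. The same number, 5, was called higher in siErm, with 0.7% of all tested probes called higher, and 2 in siCtrl, with 0.903%. None was called lower, where 3.81% of all tested probes were lower in siPea3, 0.0837% in siErm and 0.12% in siCtrl. The tested probe for Ifna12 and that for Ifna12 and Ifna15 were detected on 0 untransfected arrays. Those for Ifna2 and for Gm13271 and Ifnz were detected on 1 untransfected array each. Probes detected in transfected cells alone enter the 9 only because they are high there. These counts are thus in part set by the detection filter. Against untransfected cells, Ifna2 changed by 3.83 log2 units in siPea3 (adjusted p = 0.00404, limma), by 3.99 in siErm (adjusted p = 0.00958) and by 2.55 in siCtrl, where it was not called (adjusted p = 0.0725). Ifna12 changed by 3.78 in siPea3 (adjusted p = 0.00355, limma), by 3.8 in siErm (adjusted p = 0.0105) and by 2.57 in siCtrl, again not called (adjusted p = 0.0617). The 2 calls in siCtrl were of the probe matched to Ifna12 and Ifna15 and the probe matched to Ifnab, Ifna2 and Ifna11. When any 1 array was left out, the siCtrl count was 0 to 1, the siErm count 3 to 5 and the siPea3 count 4 to 5, with the 3 and the 4 arising without untransfected array 1. With the replicate number as a block, the counts were 5 in siPea3, 2 in siErm and 0 in siCtrl.

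Not all ligands followed. Ifna1 averaged 2.38 in siPea3, 4.17 in siErm, 2.83 in siCtrl and 2.92 in untransfected cells, and was called in no comparison. Ifnl3, a type III interferon, averaged 2.78 in siPea3, 3.56 in siErm, 3.62 in siCtrl and 3.85 in untransfected cells and was likewise never called. The probe matched to Ifna14, Ifna12 and Ifna9 was detected on all 12 arrays. It averaged 7.81, 7.74, 7.21 and 5.82 in the same order of groups. The probe matched to Ifna7, Ifna6 and Ifna5 was detected on 4 arrays and averaged 1.47, 2.71, 1.6 and 2.2. Both were called in no comparison. The probes matched to Ifna11, Ifna13, Ifna6, Ifne, Ifng and Ifnk alone were detected on 0 arrays.

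Against siCtrl, 0 of the 9 other ligand probes were called in limma in either siPea3 or siErm. At an unadjusted p under 0.05, 5 were higher in siPea3 and 4 in siErm, and 0 were lower in either, where 2.78% of all tested probes were higher in siPea3 and 1.08% in siErm. Ifna2 differed from siCtrl by 1.28 log2 units in siPea3 (adjusted p = 0.312), and Ifna12 by 1.21 (adjusted p = 0.318). These probes may read one another's transcripts and share the siCtrl arrays, so their estimates do not count as independent of each other or of Ifna4.

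**Figure D3:**
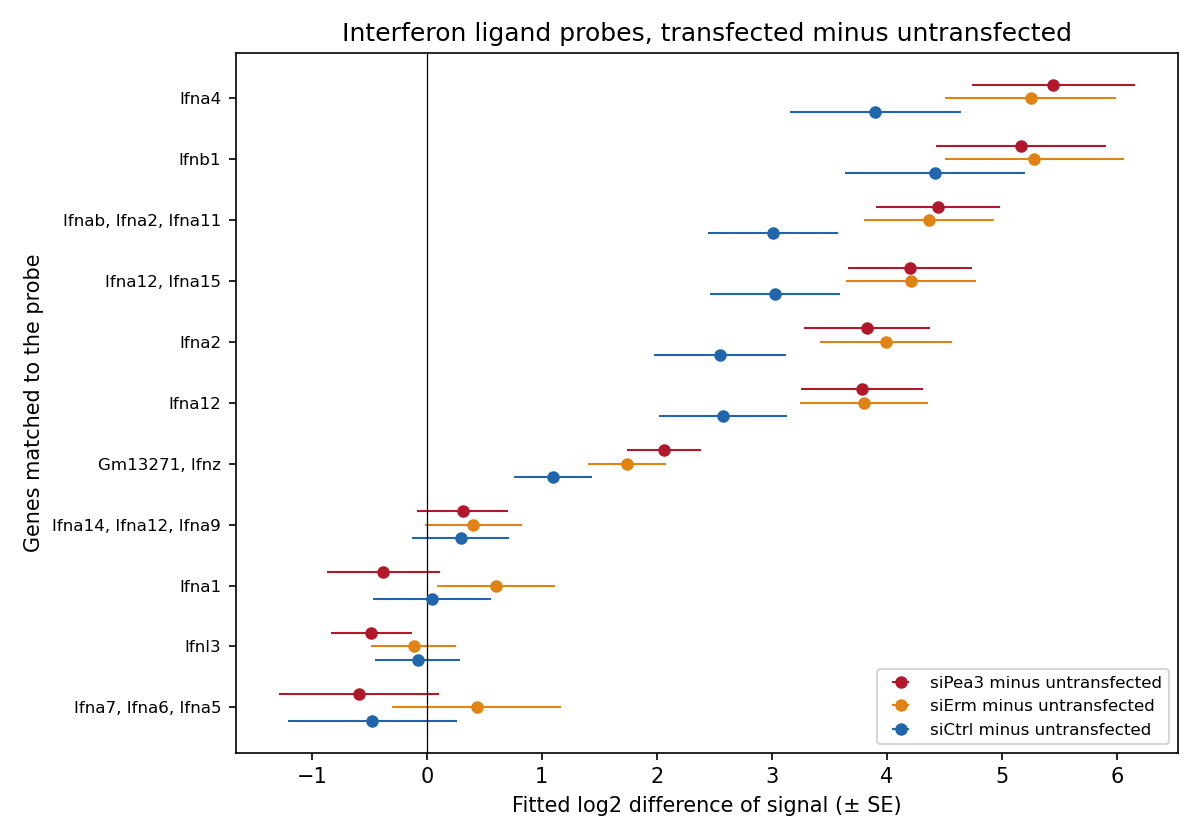
Fitted log2 differences of signal from untransfected cells (horizontal, with SE) for the 11 tested interferon ligand probes (vertical, named by the genes each is matched to), in siPea3, siErm and siCtrl. Ifna4 and Ifnb1 have the largest differences, and most probes matched to Ifna2 or Ifna12 follow. Ifna1 and Ifnl3 lie around 0. The probe matched to Ifna14, Ifna12 and Ifna9 and that matched to Ifna7, Ifna6 and Ifna5 also have small differences. All 3 differences of a probe share the 2 untransfected arrays.

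The lists used next were chosen with earlier results of these data known. The rest of the interferon pathway was read in 8 gene lists, with 1 probe per gene and without Ifnb1 and Ifna4, 86 tested genes in all. Of these, 22 were called higher in siPea3, 18 in siErm and 19 in siCtrl than in untransfected cells, beside 2.55%, 0.7% and 0.903% of all tested probes, and 0 were called lower. Leaving out 1 array changed these counts to 14 to 23 in siPea3, 5 to 14 in siErm and 8 to 14 in siCtrl, so a good part of the single calls depends on 1 library. The largest single loss in siPea3 and siCtrl came without untransfected array 1 (14 and 8 calls), and in siErm without siErm array 2 (5 calls). With the replicate number as a block the counts were 19 in siPea3, 7 in siErm and 12 in siCtrl.

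The tested sensors and adaptors, 11 genes, detect foreign nucleic acid and pass the signal on. Of these, 1 was called in siPea3 and in siCtrl, beside 2.55% and 0.903% of all tested probes called higher. That gene was Ikbke. It encodes IKK epsilon, a kinase that phosphorylates IRF3 and IRF7. It averaged 83.6 ± 21.3 in siPea3, 58.9 ± 21.5 in siErm, 56.5 ± 16.1 in siCtrl and 14.6 ± 4.67 in untransfected cells (SD, n = 4, 3, 3 and 2). Its difference from untransfected cells was called in siPea3 (adjusted p = 0.00515, limma) and just called in siCtrl (log2 1.95, adjusted p = 0.0497), and the siCtrl call was lost in each of the 5 fits that left out 1 array. The related kinase gene Tbk1 averaged 57.7 in siPea3, 68.5 in siErm, 61.8 in siCtrl and 45.6 in untransfected cells and was not called.

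In siPea3, siErm and siCtrl, 2.55%, 0.7% and 0.903% of all tested probes were called higher than in untransfected cells. Of 11 tested factors that act at interferon promoters, Irf1 alone was called higher in each transfected group. It averaged 177 ± 2.56 in siPea3, 196 ± 29.9 in siErm, 197 ± 29 in siCtrl and 75.3 ± 9.7 in untransfected cells (SD, n = 4, 3, 3 and 2). The siCtrl difference was 1.38 log2 units (adjusted p = 0.0276, limma), and that call was kept in 1 of 5 fits, each without 1 array. Jun and Atf2, whose products bind the Ifnb1 enhancer together, were not called. Irf5 and Irf8 were not called either, at differences in siCtrl of 1.59 and -0.57. Irf3, which needs no new transcription to act, is a member of the list and was not called. Irf7 was not called either. It averaged 166 ± 89.9 in siPea3, 289 ± 36 in siErm, 241 ± 194 in siCtrl and 99.3 ± 30.8 in untransfected cells (SD). Its siCtrl arrays ran from 16.7 to 362, and its siCtrl difference was 0.4 log2 units with an SE of 1.1. That spread is too wide to resolve a change of Irf7.

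Of the 5 tested receptor genes and the 5 tested genes of receptor signalling, 0 were called in any comparison by limma. At an unadjusted p under 0.05, 0 receptor genes differed in any comparison, and 1 signalling gene was lower in siPea3 than in siCtrl and 1 lower in siPea3 than in untransfected cells. Of all tested probes, 10.6% and 18.6% were lower at that level in the same comparisons. Ifnar1 averaged 38.1 ± 9.6 in siPea3, 37.5 ± 4.29 in siErm, 46.3 ± 8.74 in siCtrl and 45.7 ± 0.764 in untransfected cells (SD, n = 4, 3, 3 and 2). Ifnar2 averaged 52.4, 58.4, 64.5 and 50.6 in the same order of groups. Both receptor chains of type I interferon were thus detected with and without transfection. Irf9, a DNA-binding factor that acts downstream of the receptor, averaged 117 in siPea3, 164 in siErm, 198 in siCtrl and 239 in untransfected cells and was not called.

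Interferon-stimulated genes respond to the secreted protein. Of 29 tested, 9 were called higher in siPea3, 10 in siErm and 11 in siCtrl, beside 2.55%, 0.7% and 0.903% of all tested probes. The median difference from untransfected cells was 1.07 in siPea3, 1.45 in siErm and 1.41 in siCtrl, against -0.28, -0.09 and -0.06 over all tested probes. Igtp, an interferon-inducible GTPase, averaged 719 ± 10.7 in siPea3, 723 ± 103 in siErm, 824 ± 103 in siCtrl and 220 ± 18.4 in untransfected cells (SD, n = 4, 3, 3 and 2), a siCtrl difference of 1.9 log2 units (adjusted p = 0.00451, limma) that was kept in all 5 fits with an array left out. Cxcl10, a chemokine that attracts T cells, averaged 1530 ± 437 in siPea3, 1570 ± 141 in siErm, 1890 ± 525 in siCtrl and 414 ± 24.2 in untransfected cells (SD, n = 4, 3, 3 and 2), with a siCtrl difference of 2.16 (adjusted p = 0.00993, limma). That call was lost without untransfected array 1 (adjusted p = 0.0549), and the call of Cxcl10 in siErm was lost in all 5 fits with an array left out.

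The array with the most Ifnb1 was not the one with the most interferon-stimulated signal. Taken as the median over the 29 genes of the log2 signal minus its untransfected mean, the list stood at 1.23, 0.82, 0.78 and 1.07 on siPea3 arrays 1 to 4, at 1.13, 1.84 and 1.32 on siErm arrays 1 to 3, and at 1.38, 1.6 and 1.57 on siCtrl arrays 1 to 3. The 2 arrays with the highest Ifnb1, siPea3 array 2 and siErm array 1, had list medians of 0.82 and 1.13, below all 3 siCtrl arrays. So did siPea3 arrays 1, 3 and 4 and siErm array 3, so this was not particular to high Ifnb1. The lowest transfected array was siPea3 array 3, whose Ifnb1 signal was 294. This is given as a description, since arrays also differ in their overall signal level.

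Between siPea3 and siCtrl, 0 of the 29 interferon-stimulated genes were called in limma, while 11 had an unadjusted p under 0.05, all 11 lower in siPea3. Over all tested probes, 13.4% had an unadjusted p under 0.05 in this comparison, 2.78% higher and 10.6% lower, and 30.6% of all estimates were above 0, so a lean to lower values was general. The list median was -0.46, against -0.24 for all tested probes, and 7 of 29 genes lay above that all-probe median. Quantile normalization gave a list median of -0.22 against -0.05, and scaling on the probes detected on all arrays gave -0.15 against 0.07, with 8 and 7 genes above the all-probe median. The genes with the smallest p were Oasl1, a 2'-5' oligoadenylate synthetase-like gene, Cmpk2, a mitochondrial nucleotide kinase, and Psmb8, an immunoproteasome subunit. Oasl1 had 21.7, 57.2, 39.2 and 36.5 on the siPea3 arrays, 101, 148 and 124 on the siErm arrays, 83, 283 and 155 on the siCtrl arrays, and 21.7 and 13.8 on the untransfected arrays. All 4 siPea3 arrays lay below all siCtrl and siErm arrays, a separation whose share among all tested probes was not counted. The siPea3 minus siCtrl difference was -2.08 log2 units (SE 0.432, limma adjusted p = 0.13). It was called in 2 of the other settings, at adjusted p = 0.0484 with 4 added before the log and at 0.0452 with an intensity trend. Cmpk2 was lower by a log2 difference of -1.27 (adjusted p = 0.176, limma) and Psmb8 by -0.97 (adjusted p = 0.239). Thus Ifna4, at 1.55, and Oasl1, at -2.08, had estimates of opposite sign in this comparison, and neither passed.

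In siErm against siCtrl the same 29 genes had a median of -0.18 (all tested probes -0.05), with 0 called by limma and 0 at an unadjusted p under 0.05. Of the 10 negative regulators, 0 were called in any comparison by limma. Usp18, which damps receptor signalling, averaged 553 ± 34.1 in siPea3, 791 ± 106 in siErm, 910 ± 287 in siCtrl and 413 ± 60.6 in untransfected cells (SD, n = 4, 3, 3 and 2). Socs1, an inhibitor of the receptor kinases, averaged 92.1, 111, 122 and 62.9 in the same order. Of the 10, 4 had an unadjusted p under 0.05 between siPea3 and siCtrl, all lower in siPea3, the direction in which 10.6% of all tested probes lay at that level. Against untransfected cells the count at that level was 1, lower, in siPea3, 3, all higher, in siErm and 4, all higher, in siCtrl, where 18.6% of all tested probes were lower in siPea3, 5.42% higher in siErm and 6.27% higher in siCtrl.

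Cytokines and chemokines that share inducers with Ifnb1 had the largest share of calls of any list in siPea3 and in siCtrl. Of 11 tested, 9 were called higher in siPea3, 5 in siErm and 6 in siCtrl than in untransfected cells, beside 2.55%, 0.7% and 0.903% of all tested probes. Their median differences were 2.33, 2.17 and 2.13. Ccl5, a chemokine induced through IRF and NF-kB sites, had 1037, 3936, 3437 and 2378 on the siPea3 arrays, 3557, 4303 and 3496 on the siErm arrays, 2790, 3686 and 2988 on the siCtrl arrays, and 229 and 159 on the untransfected arrays. Its siCtrl difference was 4.04 log2 units (SE 0.486, adjusted p = 0.0032, limma) and was called in all 5 fits with an array left out. For Ccl5, as for Ifnb1 and Ifna4, siPea3 array 1 was the lowest of the siPea3 arrays.

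Il6, an inflammatory cytokine, averaged 705 ± 264 in siPea3, 243 ± 48.3 in siErm, 301 ± 154 in siCtrl and 25.5 ± 18.5 in untransfected cells (SD, n = 4, 3, 3 and 2). Csf2, which encodes the growth factor GM-CSF, had 476, 514, 971 and 729 on siPea3 arrays 1 to 4, 308, 231 and 322 on the siErm arrays, 208, 185 and 223 on the siCtrl arrays, and 69.3 and 11.4 on the untransfected arrays. All siPea3 arrays lay above all siErm and siCtrl arrays for Csf2, a separation whose share among all tested probes was not counted. The siPea3 minus siCtrl difference of Csf2 was 1.66 log2 units and was not called (adjusted p = 0.253, limma). None of the 11 was called between siPea3 and siCtrl in limma, and at an unadjusted p under 0.05 there were 3 higher and 1 lower (2.78% and 10.6% of all tested probes). The lower gene was Csf3, which had the smallest p of the list. It averaged 1200 ± 147 in siPea3, 2050 ± 588 in siErm, 2290 ± 431 in siCtrl and 774 ± 90.7 in untransfected cells (SD, n = 4, 3, 3 and 2). Its siPea3 minus siCtrl difference was -0.92 log2 units (adjusted p = 0.227, limma). Across all 86 genes of the 8 lists, 0 were called in siPea3 or in siErm against siCtrl. At an unadjusted p under 0.05, 5 were higher and 18 lower in siPea3, beside 2.78% higher and 10.6% lower among all tested probes, and 2 were higher and 0 lower in siErm, beside 1.08% and 0.945%.

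**Figure D4:**
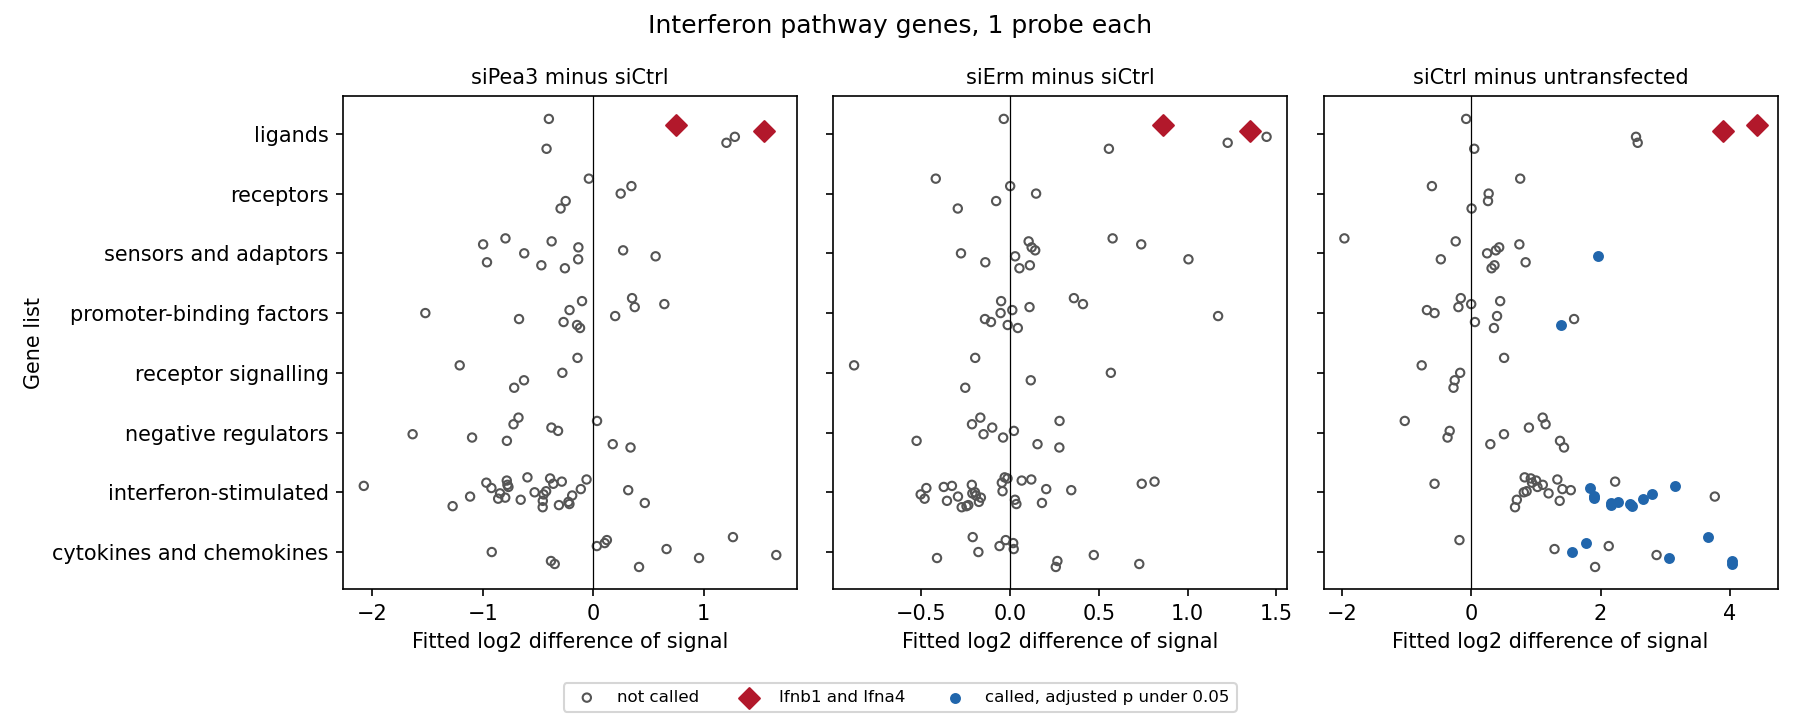
Fitted log2 differences of signal (horizontal) for the tested genes of each list (vertical, 1 point per gene), for siPea3 minus siCtrl, siErm minus siCtrl and siCtrl minus untransfected. Diamonds are Ifnb1 and Ifna4, filled circles are other genes called at an adjusted p under 0.05, and open circles are genes not called. Calls appear only in the panel against untransfected cells, 19 genes in all, with 11 of them interferon-stimulated.

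The genes whose signal followed the 2 interferons most closely were sought among the probes with 1 gene symbol and a value on every array. Over the 12 arrays, the Pearson r of log2 signal with Ifnb1 was 0.971 for Ifna12, 0.959 for Ifna4, 0.935 for Ccl4 and 0.929 for Ifna2, out of 9040 probes. With Ifna4 it was 0.989 for Ifna12, 0.96 for Ifna2, 0.935 for Csf2 and 0.934 for Ccl2. Much of this rests on the gap between transfected and untransfected arrays, which all these genes share, and arrays share their overall signal level. Over the 10 transfected arrays alone, out of 9072 probes, the interferon alpha genes stayed close to Ifna4, with r at 0.972 for Ifna2 and 0.956 for Ifna12. Ifnb1 kept an r of 0.868 with Ifna12 and of 0.765 with Ifna4, which ranked 33. The 4 genes nearest to Ifnb1 on the transfected arrays, Pus7l, Tac2, Svil and Pp2d1, were each detected on 2 or 3 arrays and had their highest transfected signal on siPea3 array 2.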

How the data were processed

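RNA of MMT cells was hybridised to 12 single-colour arrays in 4 groups, named from the sample titles. The deposited table of each array gives an assay normalized signal (a linear intensity), a CV, which per the file headers is a noise-over-signal ratio, and a status score. The values of the deposited series table equalled the array files' signals at all 392662 shared entries. No scanner software, background correction or array scaling is given in the sources used here, so the intensity values were used as deposited, and no depth applies: the number of arrays limits precision.

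Signals with a status above 4096 were left out (145 to 438 probes per array). A probe was detected where signal over noise (1 divided by the CV) was at least 3. Of 33012 probes, 16726 were detected on at least 2 arrays, and 16724 of them had enough values to be tested. Log2 signals were fitted with limma 3.58.1 (R 4.3.3), 1 coefficient per group over all 12 arrays with no block, and p-values were adjusted over all tested probes by the Benjamini-Hochberg method, called under 0.05. The spread had 8 residual and 3.06 prior degrees of freedom. Single probes also had an exact 2-sided permutation test over arrays. Fold changes are ratios on this log2 scale.

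Gene names came from the array annotation: 14411 probes had 1 symbol, 247 several and 18354 none. For the lists, 1 probe per gene was used, that with the highest mean log2 signal. Upstream sequences are from RefSeq.

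The genes and lists were chosen with earlier results of these data known. The genes named were drawn by a rule, and not all genes it gave are named. It took the 2 interferons, the other ligands, the siRNA targets with Etv1, and the genes most like each interferon. From each list it took the 4 with the smallest p in siCtrl against untransfected cells. It also took the 3 with the smallest p in siPea3 against siCtrl. Irf3 and Irf7 were added after their values were seen.

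The deviations of same-numbered arrays correlated at 0.115 to 0.321 over 3 pairs for siPea3 with siCtrl (other pairs -0.305 to 0.319), and at 0.225 to 0.312 for siErm with siCtrl (other pairs -0.257 to 0.051). Every same-numbered pair was above 0.1, so the numbers were taken to pair these arrays. Even so, siPea3 array 4 matched siCtrl array 3 about as well as the best same-numbered pair. For siPea3 with siErm the same-numbered correlations were -0.04 to 0.08, and the untransfected arrays form only 2 pairs. The main fits and the permutation tests do not use this pairing. The fits with a replicate block do, and are given beside them. Alternatives were other scalings, 4 added before the log, other detection filters, a replicate block, an intensity trend, fits on 2 groups and leaving out each array. On simulated data with log2 changes of 3 in siPea3 against siCtrl, 89.5% of changed probes were recovered among 16724. Smaller changes, such as the differences of Ifnb1 and Ifna4 from siCtrl, were not simulated. The share recovered therefore does not apply to them.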

Additional observations from a re-analysis of the deposited data

Results flagged for a closer look

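The signal of each of 66 probes (the interferon ligands, the listed and the most similar genes) was checked within the siPea3 group, the only group with 4 arrays, for a single array far from the others, by the gap to the nearest array over the whole range. A gap above Dixon's 95% critical value for 4 samples was taken as far. Of the 66, 6 were found, 5 of them on siPea3 array 2. That array also had the lowest share of detected probes. Pus7l, Tac2, Svil and Pp2d1 entered the check by their likeness to Ifnb1, which was highest on the same array. The count therefore cannot be set against the share of about 1 in 20 that chance gives.

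Ifnb1 had 1165 on siPea3 array 2, against 169 to 294 on the other siPea3 arrays, a gap of 0.875 of the range. On the log2 scale the gap was 0.714, below that critical value. Usp18 had 604 on siPea3 array 1, a gap of 0.866 (0.859 on the log2 scale), although the group's range was narrow (533 to 543 on the other arrays). On siPea3 array 2, 4 of the genes most like Ifnb1 also stood apart: Pus7l with a gap of 0.888, Tac2 with 0.868, Svil with 0.924 and Pp2d1 with 0.986. On the log2 scale the gaps of Pus7l (0.671), Tac2 (0.709) and Svil (0.743) were below the critical value, and that of Pp2d1 (0.96) was above it. These 4 were selected by their likeness to Ifnb1 on the same arrays, so they are not independent of it.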

How the results depend on the processing

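The siPea3 minus siCtrl difference stayed positive in all 16 alternatives for Ifnb1 (0.15 to 1.08) and Ifna4 (1.14 to 1.93), and the siErm minus siCtrl difference in all 15 for Ifnb1 (0.34 to 1.15) and Ifna4 (0.93 to 1.74); limma called none of them. The siPea3 minus siErm difference had no stable sign. For Ifnb1, -0.11, it was 0.03 with quantile normalization, 0.16 with scaling on probes detected on all arrays and 0.08 with the replicate block, and it spanned -0.71 to 0.41 when 1 array was left out (0.22 without siPea3 array 1, 0.08 without siPea3 array 4 and 0.41 without siErm array 1). For Ifna4, 0.2, it spanned -0.19 to 0.62 (-0.03 without siPea3 array 2 and -0.19 without siErm array 2). Against untransfected cells, adding 4 before the log lowered the Ifna4 difference to 3.48 in siPea3, 3.3 in siErm and 2.11 in siCtrl, since the untransfected signals are below 4; leaving out 1 array gave 4.33 to 6.57, 4.13 to 6.37 and 2.78 to 5.02.

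Counts of pathway genes called moved more. In siCtrl against untransfected cells the 19 calls became 12 with no detection filter, 12 with the replicate block, 30 with an intensity trend, 0 in a fit of the 2 groups alone and 8 to 14 without 1 array. In siErm the 18 calls became 7 with the block, 2 in the fit of 2 groups and 5 to 14 without 1 array, and in siPea3 the 22 became 8 in the fit of 2 groups and 14 to 23 without 1 array. Of the 9 other ligand probes, the block left 5 calls in siPea3, 2 in siErm and 0 in siCtrl. The 0 calls between siPea3 and siCtrl became 1, Oasl1, with 4 added before the log or an intensity trend. Over all probes, the siPea3 minus siCtrl calls ranged from 0 to 65 with 4 added, and the block changed no call of Ifnb1 or Ifna4. The cause of these shifts was not tested. Untransfected cells had 2 arrays and the Ifna4 signal there was 2.93 and 0.62, which limits every fold against them.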
